A study of Sus scrofa with 48 samples.

Results

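The enzymes of glutathione, thioredoxin and antioxidant defence were represented by 42 genes of the 6765 with a single symbol on the porcine array. They were taken by gene symbol, with no measured value in the rule: the glutathione transferase (GST classes A, K, M, O, P, T and Z, and MGST), glutathione peroxidase (GPX), peroxiredoxin (PRDX), thioredoxin-related (TXN), superoxide dismutase (SOD) and glutamate-cysteine ligase (GCL) symbols, and CAT, GSR, GSS, HMOX1 and NQO1. Each gene was read from its brightest probe set by mean log2 signal over all arrays. In all 67 probe sets carried these symbols, with 26 genes on 1 probe set and 16 on more than 1. All 42 entered the tests, dim ones included.

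Liver and fat of 24 gilts, young female Yorkshire pigs aged 6 months, were profiled on 48 one-colour arrays. The animals came from a line bred for efficient use of feed through low residual feed intake, so every group shares that background. A gilt was homozygous either for N298 or for the wildtype D298 form of MC4R, the melanocortin-4 receptor, which curbs feeding through the hypothalamus, and had feed withheld for 3 days or had free access to it over the same time. The 8 groups of 6 arrays were N298 fasted, N298 fed, D298 fasted and D298 fed gilts in fat and the same 4 in liver. The substitution changes 1 residue of the receptor, so transcript signals do not check the genotype labels.

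Glutathione is a tripeptide made from glutamate, cysteine and glycine, and it donates electrons to the peroxidases that clear hydrogen peroxide and lipid peroxides and to the transferases that conjugate reactive compounds. Thioredoxin does the same for the peroxiredoxins, and both carriers are recharged by reductases that draw on NADPH. Superoxide dismutases and catalase work without either carrier, turning superoxide into hydrogen peroxide and hydrogen peroxide into water. Liver is known as a main site of glutathione synthesis and conjugation, and in fat cells these enzymes sit beside pathways that use the same NADPH for making fatty acids.

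Signals were the deposited linear intensities, scaled to a common trimmed mean, and log2 of them was used for all tests. The median signal of an array was 159 to 192 in fat and 122 to 149 in liver. Hepatocyte markers (13 of 14 listed genes measured) summed to 6588 to 28510 in fat and to 376400 to 545600 in liver, and adipocyte markers (8 of 12) to 58350 to 89500 in fat and 1211 to 2565 in liver, as the tissue labels state. No value in the table was 0. Of the 24 fat arrays 5 stood apart by muscle markers (10 of 13 measured), which summed to 89353 to 126867 on them and to at most 59798 on the other 19; they were D298 fasted replicates 4, 5 and 6, N298 fasted replicate 6 and N298 fed replicate 3. N298 fed replicate 1 had the highest macrophage sum in fat, 19890, against at most 10200 on the other fat arrays. In bulk tissue, fewer cells of a type and less RNA per cell cannot be told apart.

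The first question was how these genes answered fasting in each tissue. In fat 18 of the 42 were lower and 2 were higher in fasted than in fed gilts at an adjusted p under 0.05 (limma), and 22 were not called. The background was 18.9% of all 6765 genes lower and 15.3% higher in fat, against 42.9% and 4.76% of the 42. The median log2 fold change was -0.23 over the 42 genes and 0.01 over all genes. The 18 lower genes held all 6 peroxiredoxins, 4 of 8 transferases, 2 of 7 glutathione peroxidases, 2 of 5 thioredoxins and reductases, 2 of 6 thioredoxin-like proteins, GCLC and NQO1, and the 2 higher ones were SOD2 and GPX3. In liver 5 of the 42 were lower and 1 was higher, where the background was 3.1% lower and 4.09% higher, and the medians were -0.06 and 0.01.

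**Figure D1:**
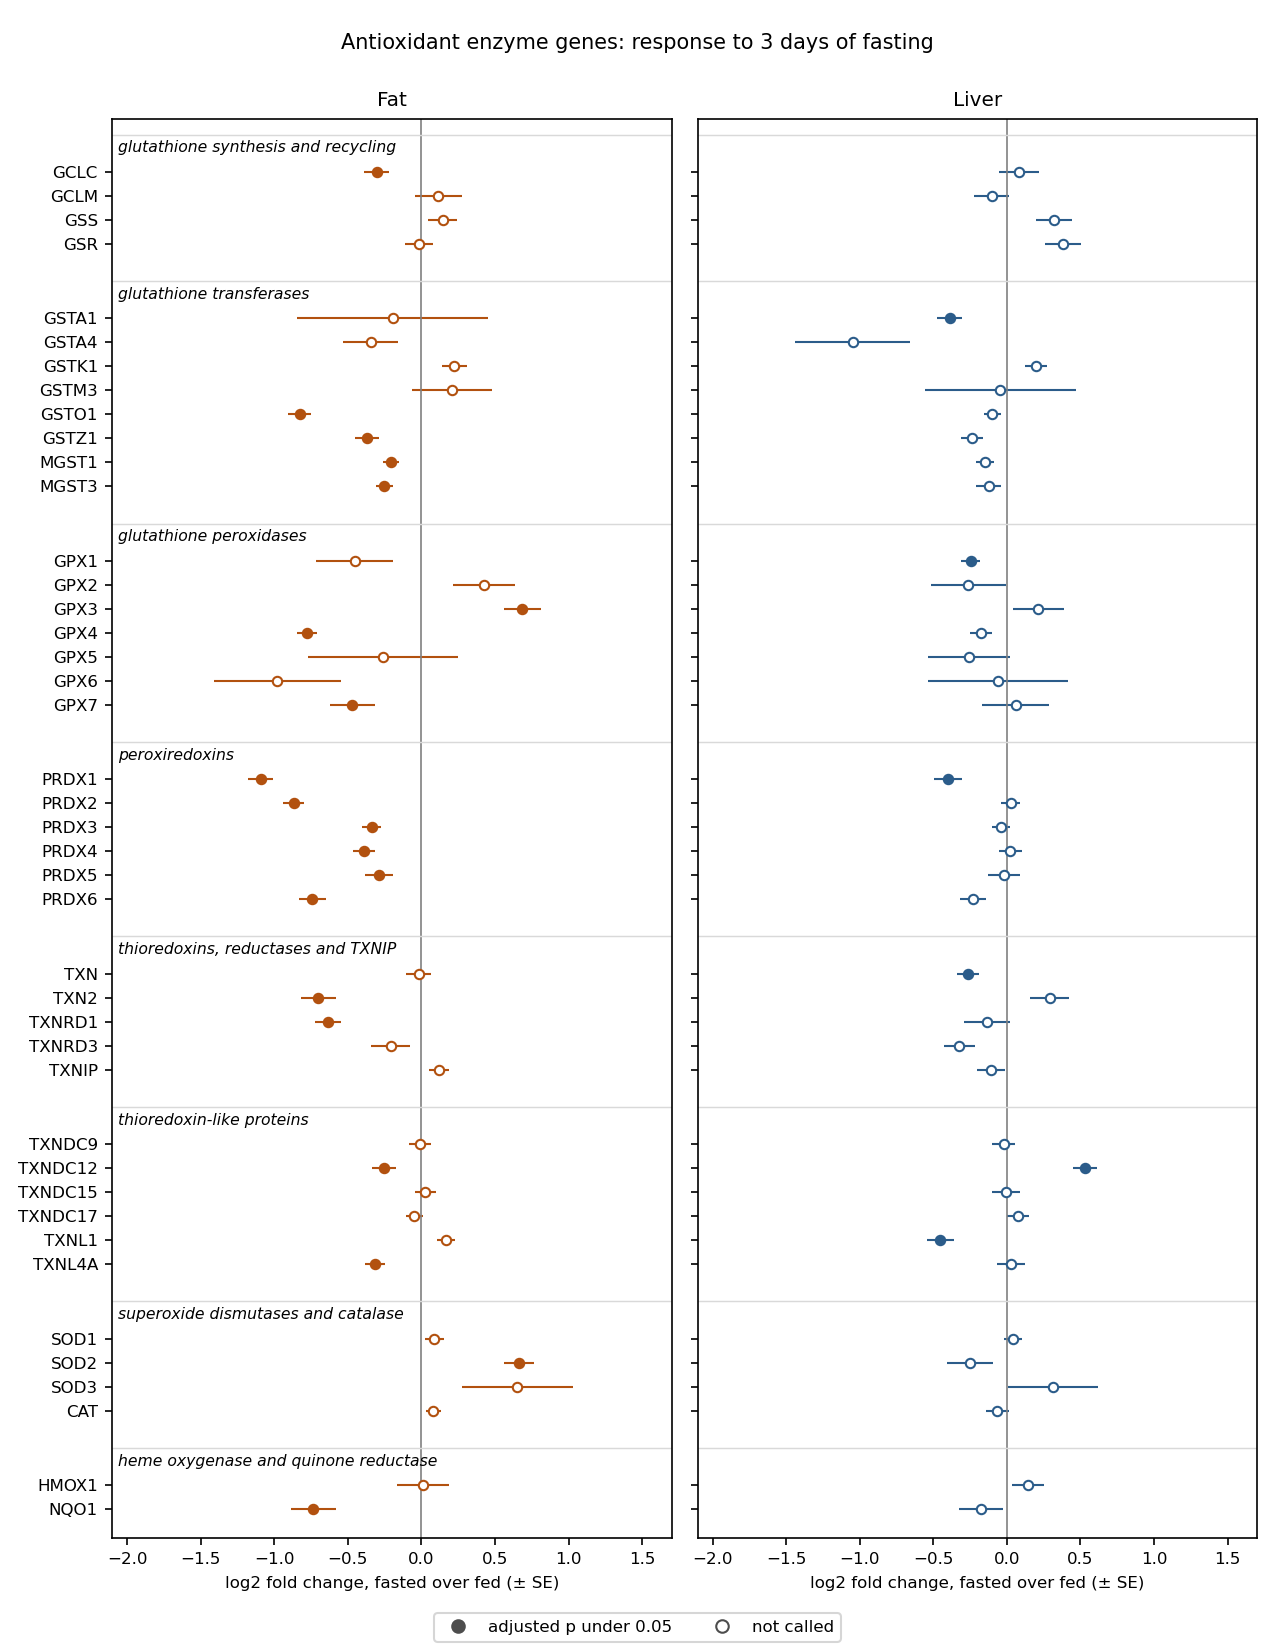
Each point is the log2 fold change of 1 of the 42 genes, fasted over fed, with its standard error, in fat (left) and liver (right), with the genes listed down the page by role. Filled points passed an adjusted p of 0.05: in fat 18 lie below 0 and 2 above, with the 6 peroxiredoxins all filled and below 0, and in liver 5 lie below and 1 above.

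The 2 tissues were then set against each other within the same gilts, as the fasting response of fat minus that of liver. This difference was called for 12 of the 42 genes, as negative for 10, with fat the lower of the 2, and as positive for 2, where the background was 15.2% negative and 9.06% positive. The called negative ones were TXN2, PRDX2, TXNDC12, GSTO1, PRDX1, GPX4, PRDX6, PRDX4, TXNL4A and PRDX3, and the positive ones SOD2 and TXNL1. Centring each array on its median lowered each of these differences by 0.14 on the log2 scale, each fasting response in fat by 0.09, and raised each response in liver by 0.06, and no call among the named genes changed sign under it. The calls of PRDX1, GPX1 and TXN in liver no longer passed.

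Peroxiredoxins reduce hydrogen peroxide with a reactive cysteine that thioredoxin recharges, except PRDX6, which uses glutathione. All 6 of them fell in fasted fat. PRDX1, an abundant cytosolic form, had signals of 2127 to 2806 (median 2333) in fasted fat, against 3198 to 7252 (median 5206) in fed fat. Every fasted array was below every fed array, and the 0.469-fold level was the largest of the 18 falls (log2 fold change -1.09 ± 0.09, adjusted p = 1.75e-08). In liver PRDX1 also fell, with signals of 2421 to 3855 (median 3102) in fasted and 3146 to 6094 (median 4104) in fed gilts (log2 fold change -0.40 ± 0.09, adjusted p = 0.0147). There the groups overlapped, although 11 of 12 fasted gilts were below the fed gilt of the same genotype and number. Such pairs, also counted below, are different gilts. Their numbers were not shown to pair them, so pair counts only describe the signals. The call in liver was lost under median-centring (adjusted p = 0.0647) and without replicate 3, 5 or 6. The fall was larger in fat than in liver (log2 difference -0.69 ± 0.13, adjusted p = 0.000111).

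PRDX2, the cytosolic form best known from red cells, fell in fat and was not called in liver. Its signals were 4533 to 6292 (median 5252) in fasted fat, against 7041 to 12283 (median 9794) in fed fat, again with no overlap (log2 fold change -0.87 ± 0.07, adjusted p = 2.99e-08). In liver they were 4026 to 5386 (median 4579) in fasted and 3545 to 4962 (median 4577) in fed gilts, with nearly equal medians (log2 fold change 0.02 ± 0.06, adjusted p = 0.901). The difference between the tissues was -0.89 ± 0.09 on the log2 scale (adjusted p = 4.76e-09). Erythroid markers (4 of 10 measured), which bear on a red cell gene, summed to 1039 to 1545 in fasted and 1008 to 1404 in fed fat, with 1 of the 4 called higher and none lower. In liver they summed to 1328 to 3003 (median 2015) in fasted and 1278 to 3130 (median 2512) in fed gilts, with a median log2 fold change of -0.46; none was called, but all 4 had an unadjusted p under 0.05. Their part in the PRDX2 result was not tested.

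PRDX6 had signals of 4208 to 6501 (median 5613) in fasted fat, against 5351 to 10932 (median 9498) in fed fat (log2 fold change -0.74 ± 0.09, adjusted p = 5.99e-06). Of the fasted arrays 4 were below all fed arrays, since 1 fed array, D298 replicate 1 at 5351, lay far under the rest. In liver its log2 fold change was -0.23 ± 0.09 (adjusted p = 0.171), and the difference of the tissues passed (log2 difference -0.51 ± 0.13, adjusted p = 0.00358). PRDX3, the mitochondrial form, had 6333 to 11394 (median 8389.8) in fasted and 9868 to 12360 (median 11015) in fed fat, with 10 of 12 fasted arrays below all fed ones (log2 fold change -0.34 ± 0.07, adjusted p = 0.000643). Its call in fat was lost under quantile normalization, as was its difference between the tissues, which also did not pass without replicate 6. In liver the 2 groups of PRDX3 signals lay on top of each other (log2 fold change -0.04 ± 0.06, adjusted p = 0.808).

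PRDX4, the form of the endoplasmic reticulum, had 2273 to 3248 (median 2428) in fasted and 2616 to 3986 (median 3242) in fed fat (log2 fold change -0.39 ± 0.07, adjusted p = 0.000417). The groups overlapped, with 8 fasted arrays below all fed ones. A second, much dimmer probe set of PRDX4 went the other way in fat (log2 fold change 0.58, adjusted p = 0.00298), so the gene's direction there depends on the probe set. PRDX5, found in mitochondria and peroxisomes, had the smallest of the 6 falls, with medians of 1707 in fasted and 2077 in fed fat (log2 fold change -0.29 ± 0.10, adjusted p = 0.0312). Its call did not hold without replicate 1, 3 or 4 or without the muscle-rich arrays, and in liver its estimate was -0.02 ± 0.11.

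**Figure D2:**
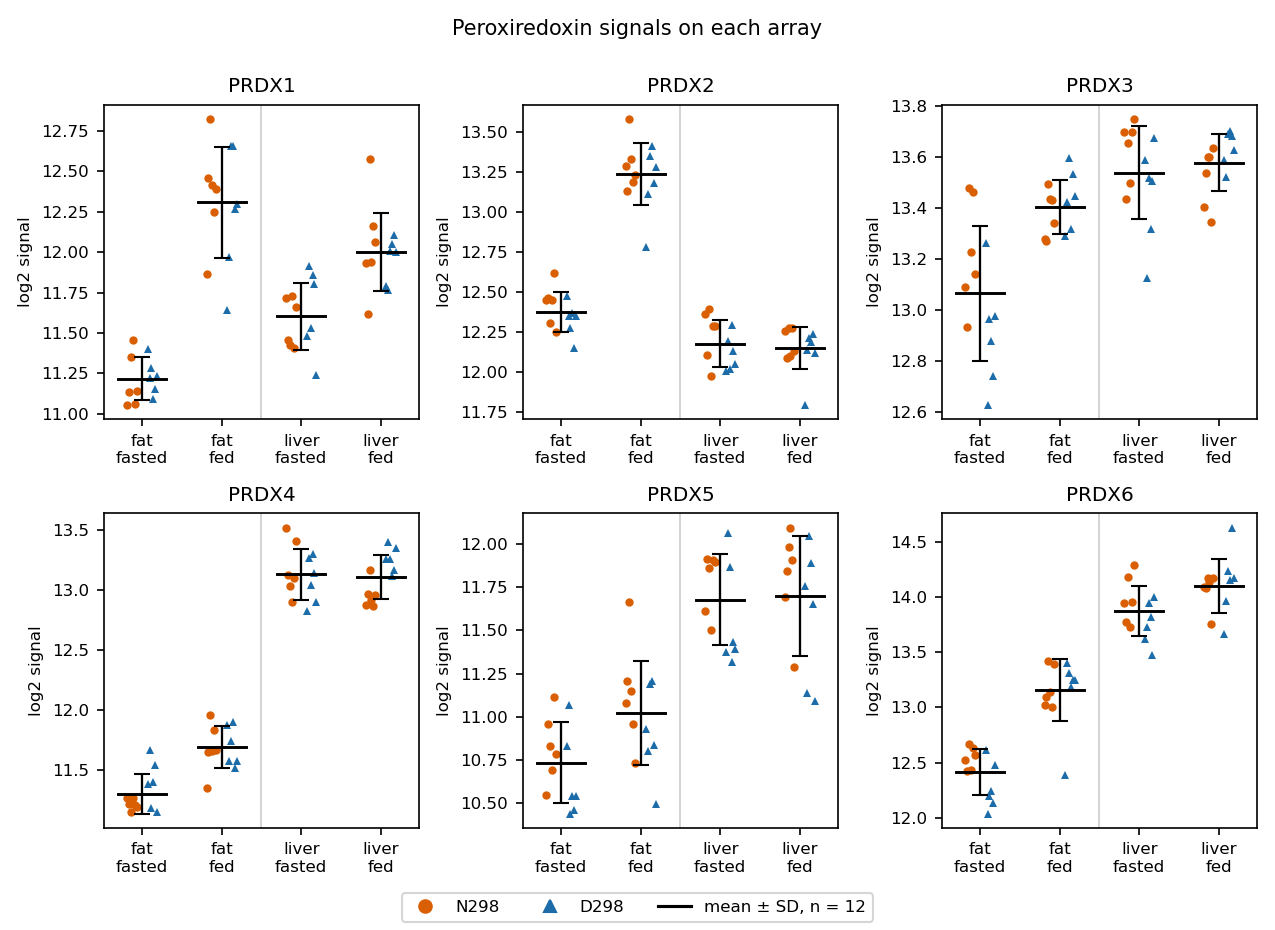
Log2 signals of the 6 peroxiredoxins on each of the 48 arrays, with fasted left of fed in fat and in liver; orange circles are N298 and blue triangles D298 gilts, and black bars give the mean ± SD of 12 arrays. In fat the fasted arrays of PRDX1 and PRDX2 all lie below the fed ones, and in liver PRDX2, PRDX3, PRDX4 and PRDX5 show fasted and fed arrays at the same height.

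Glutathione peroxidases split by gene. GPX4, the selenoenzyme that reduces lipid peroxides inside membranes, fell in fat: its signals were 8488 to 12337 (median 10766) in fasted fat, against 13527 to 22179 (median 18356) in fed fat. The groups did not overlap (log2 fold change -0.78 ± 0.07, adjusted p = 5.75e-08). In liver the values were 3686 to 6316 (median 4887) in fasted and 4638 to 6376 (median 5702) in fed gilts (log2 fold change -0.18 ± 0.07, adjusted p = 0.205), and the response differed between the tissues (log2 difference -0.60 ± 0.09, adjusted p = 9.68e-06). A dim second probe set of GPX4 gave 0.28 in fat with an adjusted p of 0.34 and did not pass in either direction.

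GPX3, the secreted peroxidase of plasma, moved the other way in fat. Signals were 7888 to 13902 (median 9319) in fasted and 3437 to 8648 (median 6414) in fed fat (log2 fold change 0.69 ± 0.13, adjusted p = 0.000319). Of the fasted arrays 8 were above every fed array, and 11 of 12 pairs were higher in the fasted gilt. In liver GPX3 had a log2 fold change of 0.21 ± 0.17 that did not pass (adjusted p = 0.599), and neither did the difference between the tissues (log2 difference 0.47 ± 0.22, adjusted p = 0.152).

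GPX1, the abundant cytosolic and mitochondrial selenoenzyme, fell in liver, with 12690 to 17573 (median 16007) in fasted and 15204 to 21759 (median 18423) in fed gilts (log2 fold change -0.25 ± 0.06, adjusted p = 0.0269). That call was lost without any 1 of 5 of the 6 replicate numbers. In fat GPX1 ranged over 3018 to 20211 (median 9859) in fasted and 6192 to 19216 (median 12587) in fed gilts, with a within-group SD of 0.75 on the log2 scale against 0.15 in liver, and it was not called (log2 fold change -0.45 ± 0.26, adjusted p = 0.225). GPX7, a peroxidase of the endoplasmic reticulum, fell in fat (log2 fold change -0.47 ± 0.15, adjusted p = 0.0268), and the call did not hold without replicate 1, 2 or 6. A second probe set of nearly the same brightness gave -0.59 (adjusted p = 8.98e-05). GPX2, GPX5 and GPX6, known from gut, epididymis and olfactory tissue, were below the median probe set in both tissues and were not called in either.

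Glutathione transferases conjugate glutathione to reactive or foreign compounds. GSTO1, the omega class enzyme that also reduces dehydroascorbate, had signals of 1055 to 1572 (median 1258) in fasted fat, against 1418 to 3081 (median 2181) in fed fat. Of the fasted arrays 10 were below every fed array, and all 12 pairs ran downward (log2 fold change -0.83 ± 0.08, adjusted p = 1.89e-07). In liver GSTO1 had 19847 to 25175 (median 22213) in fasted and 21009 to 26498 (median 24073) in fed gilts, with wide overlap (log2 fold change -0.10 ± 0.06, adjusted p = 0.423). The difference of response was -0.73 ± 0.09 (adjusted p = 1.67e-07), and it was called under all 15 alternatives run.

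GSTZ1, which also serves in tyrosine breakdown, fell in fat (log2 fold change -0.37 ± 0.08, adjusted p = 0.00214), with a median of 585 in fasted and 795 in fed gilts. The membrane-bound MGST1 and MGST3 fell by less, with log2 fold changes of -0.21 ± 0.05 and -0.25 ± 0.06. None of these 3 differed between the tissues, where liver gave -0.24, -0.15 and -0.12 in the same order without passing. Without the 5 muscle-rich fat arrays, the falls of GSTZ1, MGST1 and MGST3 in fat no longer passed, with log2 fold changes of -0.32, -0.16 and -0.16 (adjusted p = 0.0708, 0.167 and 0.157).

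GSTA1, an alpha class transferase, fell in liver. It had 17892 to 33079 (median 27042) in fasted and 29412 to 42752 (median 33589) in fed liver, and 11 of 12 fasted arrays were below every fed array (log2 fold change -0.39 ± 0.09, adjusted p = 0.0087). The call was lost without replicate 5 (adjusted p = 0.0565). Its probe set is of the type that can match several transcripts, so other alpha class genes may share this signal; 2 further probe sets gave -0.28 and -0.90 in liver without passing. GSTA4, which conjugates the lipid peroxidation product 4-hydroxynonenal, had the lowest estimate in liver but also a wide spread, with 267 to 2192 (median 831) in fasted and 477 to 3667 (median 2013) in fed gilts (log2 fold change -1.05 ± 0.39, adjusted p = 0.15). GSTK1, of mitochondria and peroxisomes, had estimates of 0.22 ± 0.08 in fat and 0.20 ± 0.07 in liver, just short of the threshold in fat (adjusted p = 0.054). GSTM3 was not called in either tissue.

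Of the 4 genes of glutathione synthesis and recycling 1 was called in fat, lower, where 18.9% of all genes were lower and 15.3% higher, and none in liver (limma), with 2 at an unadjusted p under 0.05. GCLC, the catalytic subunit of the rate-limiting ligase, had 204 to 289.8 (median 261) in fasted fat, against 240.3 to 386 (median 299) in fed fat (log2 fold change -0.30 ± 0.09, adjusted p = 0.0119). The call was lost without the muscle-rich arrays (adjusted p = 0.231), and none of the 4 other probe sets of GCLC passed. GCLM, the modifier subunit, gave 0.12 ± 0.16 in fat and -0.10 ± 0.12 in liver, neither of them called. Glutathione reductase (GSR), which recharges glutathione, had 1408 to 2813 (median 2139) in fasted and 1103 to 2088 (median 1648) in fed liver. Although 7 fasted arrays lay above every fed one, GSR did not pass in liver (log2 fold change 0.38 ± 0.12, adjusted p = 0.0805), and in fat its estimate was -0.01 ± 0.09. The rise in liver did pass with no replicate block, a random replicate block, median-centring or replicate 4 left out. Fat minus liver was -0.40 ± 0.15 for GSR (adjusted p = 0.0708), which passed under 5 of 17 alternatives. Glutathione synthetase (GSS) was not called, at 0.14 ± 0.10 in fat and 0.32 ± 0.12 in liver. A second, dimmer probe set of GSS was called higher in fasted fat (log2 fold change 0.51 ± 0.17, adjusted p = 0.035). In liver that probe set gave 0.30 and did not pass, so the GSS call in fat depends on the probe set.

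In the thioredoxin system the mitochondrial carrier TXN2 and the reductase TXNRD1 fell in fat, and the cytosolic carrier TXN fell in liver. TXN2, mitochondrial thioredoxin, had 673 to 892 (median 818) in fasted fat, against 769 to 2452 (median 1291) in fed fat (log2 fold change -0.70 ± 0.12, adjusted p = 0.000156). Only 4 fasted arrays were below all fed ones, since 1 D298 fed gilt lay at 769.2, but 11 of 12 pairs were lower in the fasted gilt. In liver its signals were 2582 to 4173 (median 3145) in fasted and 1805 to 3958 (median 2833) in fed gilts, not called (log2 fold change 0.29 ± 0.13, adjusted p = 0.258). Of the 42 genes TXN2 had the most negative difference of response (log2 difference -0.99 ± 0.18, adjusted p = 7.50e-05).

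TXN, cytosolic thioredoxin, fell in liver, with 6196 to 10056 (median 7536) in fasted and 7451 to 10185 (median 9057) in fed gilts (log2 fold change -0.27 ± 0.07, adjusted p = 0.0412). This call was lost under 8 of 15 alternatives, among them median-centring and the second probe set. In fat the bright probe set of TXN gave -0.02 ± 0.09 and was not called, while the dimmer one gave -0.36 (adjusted p = 0.0063). TXNRD1, the cytosolic selenoenzyme that recharges thioredoxin, had 452 to 804 (median 528) in fasted fat, against 641 to 1170.3 (median 873) in fed fat. All 12 pairs ran downward and 9 fasted arrays were below every fed one (log2 fold change -0.64 ± 0.09, adjusted p = 1.96e-05). A second probe set had the same sign at -0.53, but the dimmest of the 3 gave 0.65 (adjusted p = 0.000408), so the direction depends on the probe set. TXNRD1 and TXNRD3 were not called in liver. For TXNRD1 the difference between the tissues did not pass (log2 difference -0.50 ± 0.18, adjusted p = 0.054). It passed with that sign under 6 of 17 alternatives, while the dimmest probe set passed with the other sign (0.82, limma adjusted p = 0.0026).

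TXNIP, which binds thioredoxin and restrains glucose uptake, had signals of 23178 to 30142 (median 26251) in fasted fat and 20964 to 27455 (median 24926) in fed fat. It was called in neither tissue (log2 fold change 0.12 ± 0.07 in fat and -0.11 ± 0.10 in liver).

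Thioredoxin-like proteins share the thioredoxin fold but mostly serve other tasks. TXNDC12, a thioredoxin-fold protein of the endoplasmic reticulum, went in opposite directions in the 2 tissues. In liver it rose, with 1644 to 3474 (median 2693) in fasted and 1455 to 2294 (median 1762) in fed gilts, and 10 of 12 fasted arrays lay above every fed one (log2 fold change 0.53 ± 0.08, adjusted p = 0.000308). In fat it had 541 to 1039 (median 734) in fasted and 786 to 1099.7 (median 914) in fed gilts (log2 fold change -0.25 ± 0.08, adjusted p = 0.0239), a call lost without replicate 3, 4 or 6, without the muscle-rich arrays and with no replicate block (adjusted p = 0.0638). The difference between the tissues was -0.78 ± 0.11 (adjusted p = 2.23e-06) and passed under all 15 alternatives run.

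TXNL1, a thioredoxin-like protein associated with the proteasome, fell in liver and was not called in fat. Its signals were 2412 to 4478 (median 3104) in fasted liver, against 3359 to 6036 (median 4148) in fed liver, with 9 fasted arrays below every fed one (log2 fold change -0.45 ± 0.09, adjusted p = 0.00446). The other 2 probe sets of TXNL1 also passed in liver, at -0.34 and -0.50. In fat the estimate was 0.17 ± 0.06 (adjusted p = 0.0549), and fat minus liver was 0.62 ± 0.11 (adjusted p = 6.71e-05). The other 2 probe sets gave -0.02 and 0.18 in fat, neither called, and differences of 0.31 and 0.68, both called. TXNL4A, a component of the spliceosome, fell in fat (log2 fold change -0.32 ± 0.07, adjusted p = 0.00126) and not in liver (0.03 ± 0.09), and the difference was called (log2 difference -0.34 ± 0.11, adjusted p = 0.0273), though not without replicate 3 or 4. TXNDC9, TXNDC15 and TXNDC17, the last a small cytosolic oxidoreductase, had estimates between -0.05 and 0.03 in fat and between -0.02 and 0.07 in liver.

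The superoxide dismutases and catalase had 1 call in fat, a rise, and none in liver. SOD2, the manganese enzyme of mitochondria, had 5182 to 9970.2 (median 7206) in fasted fat, against 3257 to 6184 (median 4729.8) in fed fat. It was higher in the fasted gilt of all 12 pairs, and 11 of 12 fasted arrays were above every fed one (log2 fold change 0.66 ± 0.10, adjusted p = 4.18e-05). In liver SOD2 had 1954 to 4579.9 (median 3071) in fasted and 2671 to 6689.8 (median 3326) in fed gilts (log2 fold change -0.25 ± 0.16, adjusted p = 0.462), and the difference was 0.91 ± 0.19 (adjusted p = 0.000597).

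SOD1, the copper-zinc enzyme of the cytosol, had 13084 to 22506 (median 17389) in fasted and 15850 to 18322 (median 16664) in fed fat and was not called (log2 fold change 0.09 ± 0.07, adjusted p = 0.382). CAT, catalase, had 17196 to 22158 (median 18928) in fasted and 16065 to 20362 (median 18495) in fed fat (log2 fold change 0.08 ± 0.05, adjusted p = 0.274). In liver their log2 fold changes were 0.04 ± 0.06 for SOD1 and -0.07 ± 0.08 for CAT. SOD3, the secreted form, was dim and variable and was not called in either tissue.

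HMOX1 and NQO1 are widely used as readouts of the NRF2 response to oxidants. HMOX1, heme oxygenase, had 372 to 665 (median 496) in fasted and 322 to 1426 (median 491) in fed fat (log2 fold change 0.01 ± 0.18, adjusted p = 0.971), and in liver its log2 fold change was 0.14 ± 0.11. The single highest value in fat, 1426, came from N298 fed replicate 1, the array that also had the highest macrophage sum. NQO1, the quinone reductase, fell in fat, with 1048 to 2736 (median 1743) in fasted and 1542 to 3931 (median 2926) in fed gilts (log2 fold change -0.73 ± 0.15, adjusted p = 0.000971). The groups overlapped, and 10 of 12 pairs were lower in the fasted gilt. In liver NQO1 was not called (log2 fold change -0.18 ± 0.15, adjusted p = 0.61). The difference between the tissues did not pass either (log2 difference -0.56 ± 0.22, adjusted p = 0.074), though it did under 4 of 15 alternatives.

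**Figure D3:**
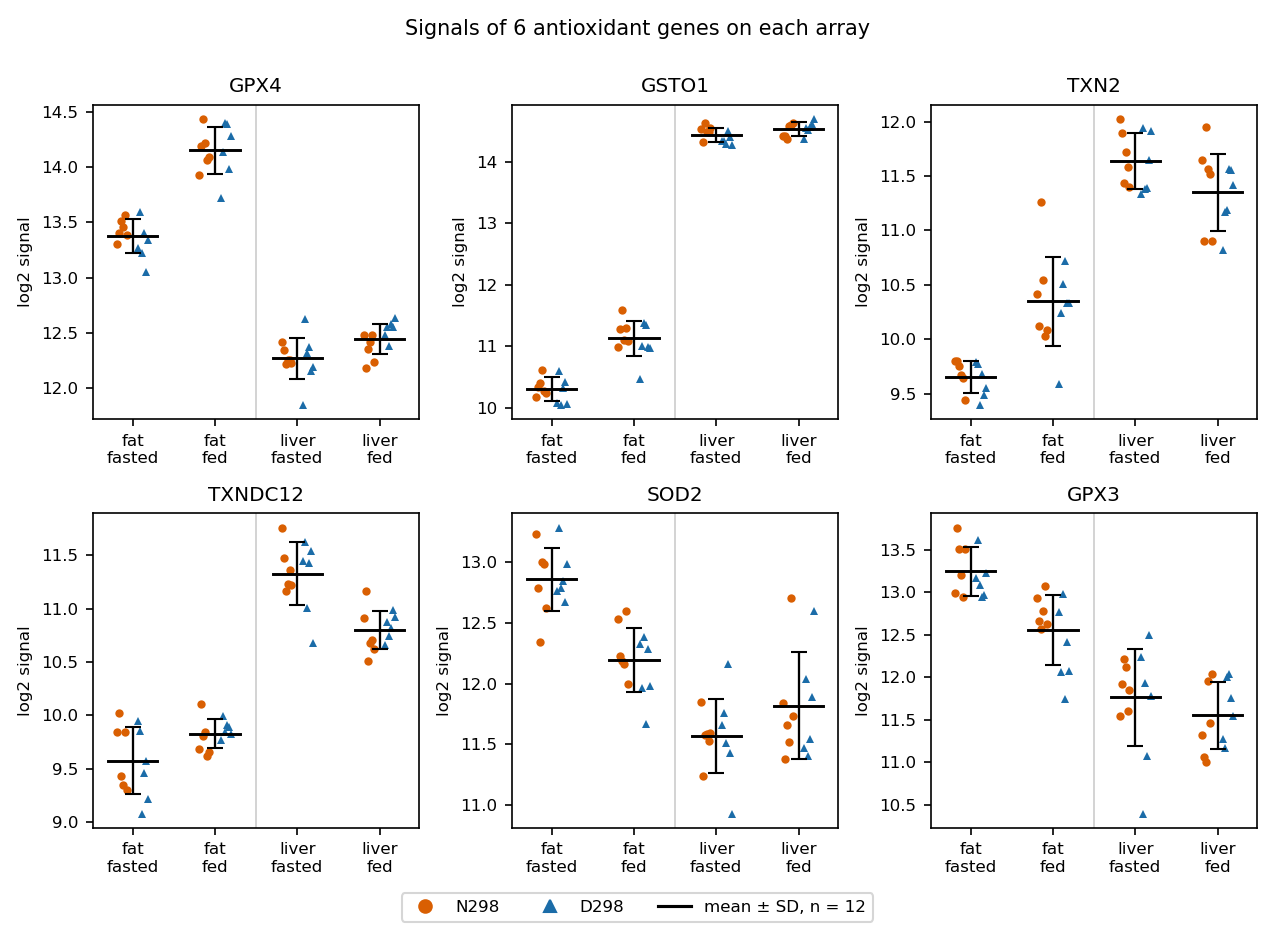
Log2 signals of 6 genes on each of the 48 arrays, fasted left of fed in fat and in liver; orange circles are N298 and blue triangles D298 gilts, and black bars give the mean ± SD of 12 arrays. GPX4, GSTO1 and TXN2 are lower and SOD2 and GPX3 higher in fasted fat, and TXNDC12 is higher in fasted liver and lower in fasted fat.

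Markers of other cells and RNA measures moved with fasting in fat too. Endothelial markers were called higher in 6 of 9 genes measured, with sums of 15500 to 26370 in fasted and 11420 to 17600 in fed fat. Fibroblast markers were called lower in 3 of 6, with sums of 20240 to 34950 in fasted and 28470 to 44280 in fed fat. Hepatocyte and adipocyte markers had 1 call in each direction, of 13 and 8 measured, and the 9 macrophage and 8 lymphocyte markers had no call there (limma), and none at an unadjusted p under 0.05. Muscle markers summed to 2267 to 126867 in fasted and to 4771 to 89353 in fed fat, with 1 of 10 called lower, and 4 of the 5 muscle-rich arrays were fasted. The log2 ratio of the 3′ to the 5′ GAPDH probe set had a median of 0.70 in fasted and 0.45 in fed fat, and of 0.38 in fasted and 0.23 in fed liver. That of actin was 1.74 in fasted and 1.66 in fed fat, and 1.72 in fasted and 1.49 in fed liver. In liver 1 of 6 fibroblast markers was lower, with sums of 4237 to 6427 in fasted and 6833 to 9228 in fed gilts, and 1 of 10 muscle and 1 of 8 adipocyte markers were higher. Without the 5 muscle-rich arrays 11 of the 18 falls and both rises in fat were kept, GPX6 was added below and GSTK1 above 0, and the 7 lost were GCLC, GSTZ1, MGST1, MGST3, GPX7, PRDX5 and TXNDC12. In that smaller set of arrays their log2 fold changes ran from -0.53 (GPX7) to -0.16 (MGST1, MGST3 and TXNDC12). In the same fit 6 of the 10 negative differences between the tissues were kept, without PRDX3, PRDX4, PRDX6 and TXNL4A, whose differences were -0.25, -0.35, -0.45 and -0.36. The part of the endothelial, fibroblast and RNA measures in these results was not tested.

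The second question was where the genes were expressed. In fasted gilts 11 of the 42 were higher and 26 lower in fat than in liver, where the background was 42.5% higher and 32.2% lower, and in fed gilts 13 were higher and 26 lower, where it was 43.8% and 29.2%. The deposited scaling sets fat arrays above liver arrays in the middle of the range: centring on the median lowered each difference by 0.43 in fasted and 0.29 in fed gilts. Under it 7 genes rather than 11 were called higher in fat of fasted gilts: GPX3, GPX4, GPX7, SOD3, TXNIP, TXNDC9 and SOD2. In fed gilts PRDX1, TXN, TXNL4A and SOD2 lost that call. The share of all genes under this scaling is not given here, so the 7 have no background beside them.

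The background was 32.2% lower in fat in fasted and 29.2% in fed gilts. Of the 8 transferases 6 were lower in fat in fasted and 7 in fed gilts, and all 4 genes of glutathione synthesis and recycling were lower in both states. MGST3 was the exception, higher in fat by 0.54 ± 0.07 in fasted and 0.67 ± 0.07 in fed gilts and in all 24 of them, with the fasted call lost under median-centring (0.11). GSTM3 was called lower in fed gilts only (-0.99 ± 0.42), at -0.73 ± 0.42 in fasted ones. GSTO1 had the difference with the smallest error among the large ones, at -4.13 ± 0.06 in fasted and -3.40 ± 0.06 in fed gilts, and was lower in fat in all 24. GCLC differed by -3.77 ± 0.11 in fasted and -3.38 ± 0.11 in fed gilts, GSTZ1 by -3.29 ± 0.08 and -3.15 ± 0.08, GSTK1 by -2.38 ± 0.07 and -2.41 ± 0.07, and HMOX1 by -2.68 ± 0.15 and -2.55 ± 0.15, each lower in fat in 24 of 24 gilts. GSTA1 had a median of 21.3 in fasted and 23.8 in fed fat, below the lower quartile of probe sets there, against 27042 and 33589 in liver of the same states. Its log2 difference of -9.51 in fasted and -9.70 in fed gilts rests on that dim end.

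The glutathione peroxidases divided, with 3 of 7 higher in fat, GPX3, GPX4 and GPX7, and 2 lower, GPX1 and GPX5, in each feeding state. These shares, 42.9% and 28.6%, were near the background of 42.5% and 32.2% in fasted and 43.8% and 29.2% in fed gilts. GPX1 differed by -0.86 ± 0.19 in fasted and -0.65 ± 0.19 in fed gilts and was lower in fat in 23 of 24, and GPX5, dim in both tissues, by -1.40 ± 0.41 and -1.40 ± 0.41. Of the 6 peroxiredoxins 5 were lower in fat in fasted and 4 in fed gilts. GPX7 was higher in fat by 2.75 ± 0.18 in fasted and 3.27 ± 0.18 in fed gilts, SOD3 by 2.68 ± 0.35 and 2.34 ± 0.35, and TXNIP by 1.57 ± 0.08 and 1.34 ± 0.08, each in 24 of 24 gilts, although GPX7 and SOD3 were below the median probe set in liver. GPX4 was higher in fat by 1.11 ± 0.07 in fasted and by 1.71 ± 0.07 in fed gilts, and GPX3 by 1.48 ± 0.16 and 1.01 ± 0.16. SOD2 was higher by 1.29 ± 0.13 in fasted and 0.38 ± 0.13 in fed gilts, and the fed call was lost under median-centring. SOD1 and CAT were lower in fat in all 24 gilts, with differences of -0.41 ± 0.06 in fasted and -0.45 ± 0.06 in fed gilts for SOD1 and of -0.42 ± 0.06 and -0.56 ± 0.06 for CAT.

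PRDX1 and TXNL1 changed sides with feeding state. PRDX1 in fat minus liver was -0.39 ± 0.09 in fasted and 0.31 ± 0.09 in fed gilts (adjusted p = 0.000246 and 0.00305), and TXNL1 was 0.32 ± 0.08 and -0.30 ± 0.08 (adjusted p = 0.000451 and 0.000813). Under median-centring the fed difference of PRDX1 shrank to 0.02 and the fasted one of TXNL1 turned to -0.11, neither called, so the crossing depends on the scaling. PRDX2 was higher in fat by 0.20 ± 0.06 in fasted and 1.09 ± 0.06 in fed gilts, and under median-centring the fasted value turned to -0.23.

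**Figure D4:**
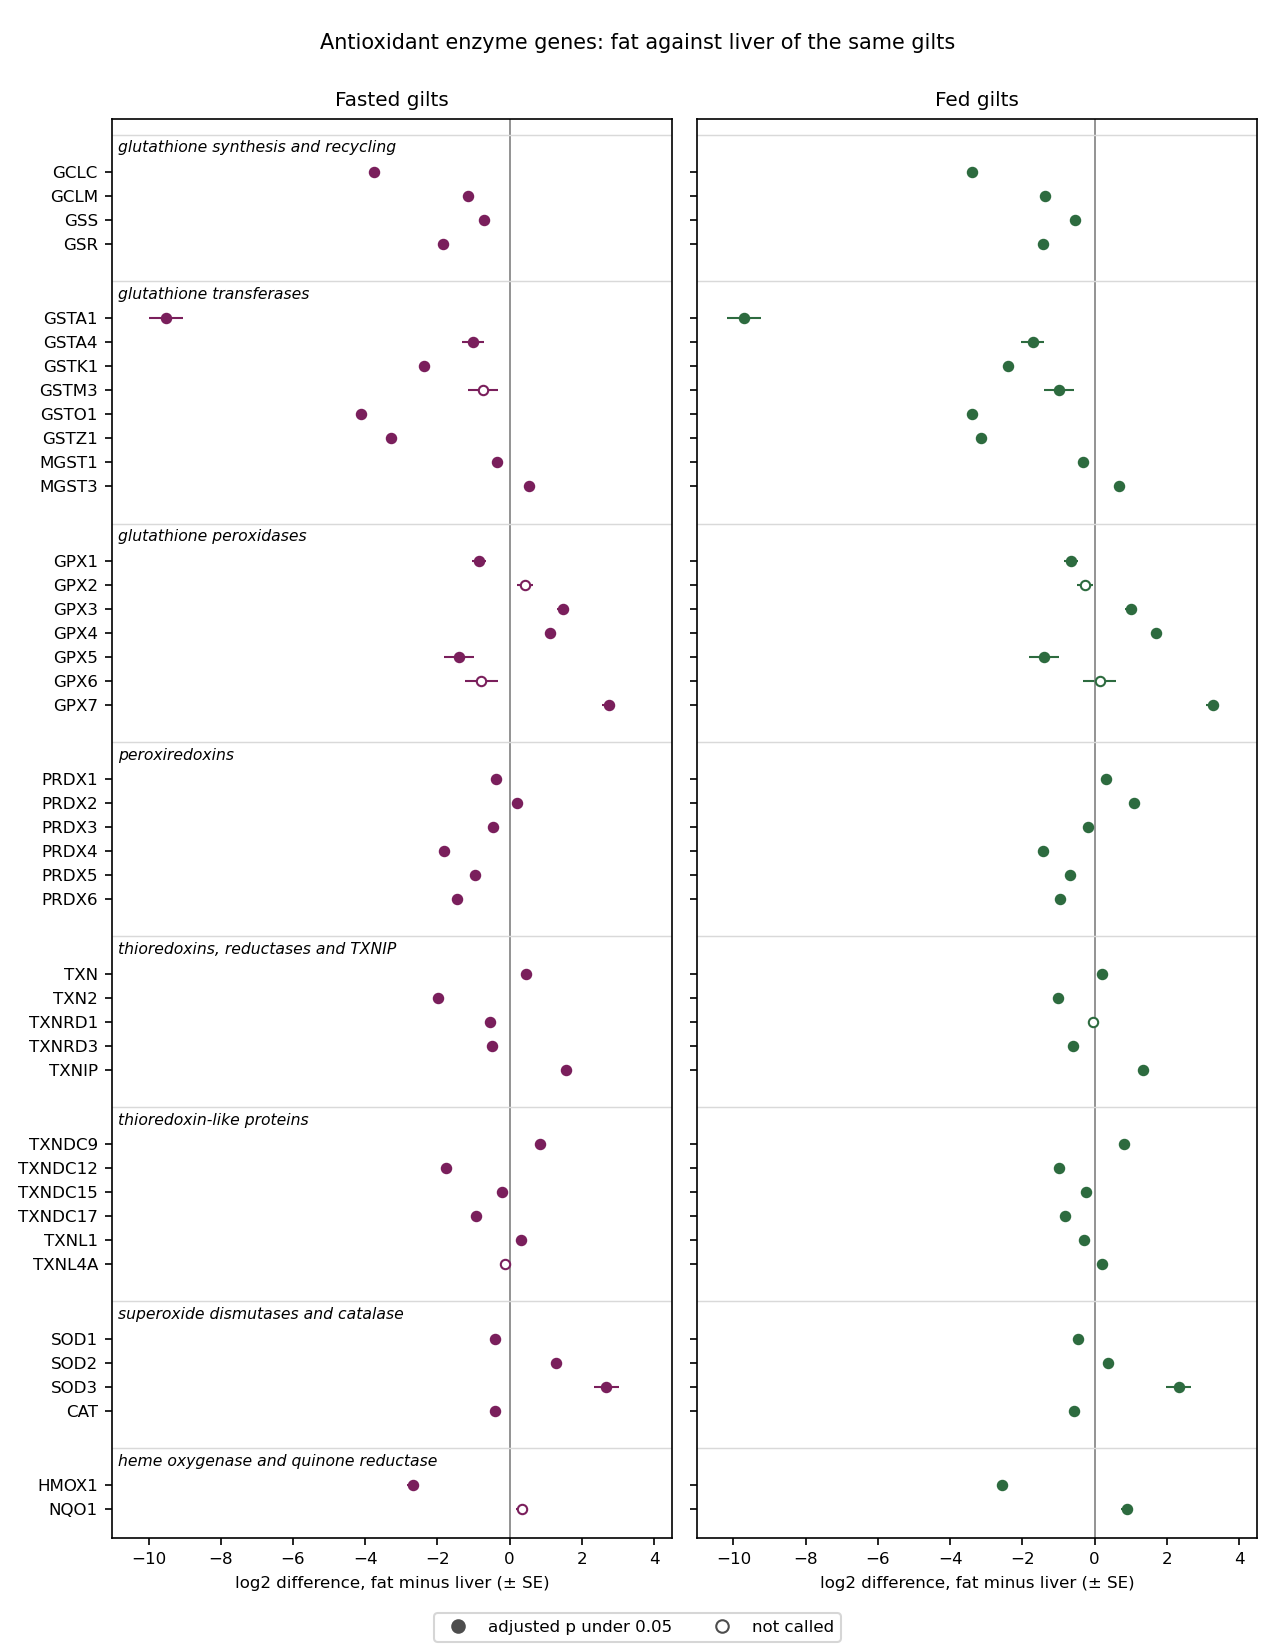
Each point is the log2 difference of 1 of the 42 genes, fat minus liver within the same gilts, with its standard error, in fasted (left) and fed (right) gilts, with the genes listed down the page by role; filled points passed an adjusted p of 0.05. GSTA1, GSTO1, GCLC and GSTZ1 lie farthest below 0 and GPX7 and SOD3 farthest above, and PRDX1 and TXNL1 lie on different sides in the 2 panels.

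The third question was whether the MC4R genotype altered these genes or their response. No probe set was called for genotype in fat or in liver (limma, 0.0% of 23999 in each). An unadjusted p under 0.05 was found for 1321 probe sets in fat (5.5%) and 1212 in liver (5.05%). These shares are near what a threshold of 0.05 gives by chance. Of the 42 genes 3 (7.14%) and 2 (4.76%) had such a p, against 5.35% and 5.07% of all 6765 genes. The genotype by fasting interaction gave 0.0% in fat and 0.0% in liver as well. There 1368 (5.7%) and 1390 (5.79%) probe sets had an unadjusted p under 0.05. So did 7 (16.7%) and 4 (9.52%) of the 42, against 6.73% and 6.62% of all 6765 genes. Without replicate 3, 2 probe sets were called for genotype in liver, and without replicate 1, 4 for the interaction in fat. NQO1 was among the 2 genes with the smallest p for genotype in both tissues, at a log2 difference, N298 minus D298, of 0.32 ± 0.15 in fat (limma adjusted p = 0.899) and 0.33 ± 0.15 in liver (adjusted p = 0.951). GPX3 was the other in fat (0.29 ± 0.13, adjusted p = 0.879) and SOD3 in liver (-0.69 ± 0.31, adjusted p = 0.951).

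For the interaction, TXNL1 in fat had fasting responses of 0.39 in N298 and -0.05 in D298 gilts, a difference of 0.44 ± 0.13 (limma adjusted p = 0.805). GSTK1 in fat had 0.49 in N298 and -0.04 in D298 gilts (0.54 ± 0.17, adjusted p = 0.805). In liver TXNDC17 and PRDX4 had the smallest p, at 0.40 ± 0.15 and 0.40 ± 0.16, each with an adjusted p of 0.85. None of these passed, and with 6 gilts a group a standard error of 0.13 to 0.17 limits what such a difference can show.

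Enzymes that feed or share the same reducing power were read from lists of other genes, and each count is set against the share of all 6765 genes called in the same direction. Of 8 measured genes that regenerate NADPH, 7 fell in fat, against the background of 18.9%, and none rose, with a list median of -0.73. ME1, cytosolic malic enzyme, had medians of 3475 against 16563 in fasted against fed fat (log2 fold change -2.23 ± 0.17, adjusted p = 7.73e-09), and PGD of the pentose phosphate pathway had 2170.5 against 6566 (log2 fold change -1.56 ± 0.11, adjusted p = 3.97e-09). NNT, the mitochondrial transhydrogenase, had 709 against 1362 (log2 fold change -0.94 ± 0.08, adjusted p = 2.18e-08). In liver 2 of the 8 fell and 1 rose, where the background was 3.1% and 4.09%. ME1 fell there (log2 fold change -1.33 ± 0.20), as did the folate enzyme ALDH1L1 (median 9327 against 18703, adjusted p = 1.49e-07), while IDH1, cytosolic isocitrate dehydrogenase, rose (log2 fold change 0.87 ± 0.11, adjusted p = 2.73e-05).

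Among 13 repair partners, the glutaredoxins, methionine sulfoxide reductases and their like, 5 fell and 1 rose in fat (background 18.9% and 15.3%), with a median of -0.09. MSRB1, a selenoenzyme that repairs oxidised methionine, had 1682 against 4400.5 in fasted against fed fat (log2 fold change -1.52 ± 0.11, adjusted p = 3.23e-09), and MSRA gave -0.74 ± 0.08 and PARK7 -0.46 ± 0.06. MSRB3 rose (0.23 ± 0.08). In liver GLRX, cytosolic glutaredoxin, was the 1 gene of this list called, and it rose (log2 fold change 0.52 ± 0.10, adjusted p = 0.00385). Among 12 genes of glutathione use and breakdown, 3 fell and 2 rose in fat, which is near the background of 18.9% and 15.3%, and 1 fell and 1 rose in liver. HAGH, which completes the glyoxalase pathway, gave -0.70 ± 0.06 in fat, SLC25A11, a mitochondrial carrier, -0.77 ± 0.15, LANCL1 -0.30 ± 0.06 and the esterase ESD 0.21 ± 0.05, and ADH5, which handles glutathione adducts, gave 0.26 ± 0.06 in liver. ANPEP, an ectopeptidase, went opposite ways, with log2 fold change 0.50 ± 0.16, adjusted p = 0.0239 in fat and log2 fold change -0.80 ± 0.08, adjusted p = 1.98e-06 in liver. Of 13 other selenoproteins and antioxidant proteins, with a median of -0.28 in fat, 5 fell there (background 18.9%) and 1 in liver (background 3.1%), among them SELENOM (-0.57 ± 0.11), SELENOW (-0.28 ± 0.07) and PON2 (-0.42 ± 0.11) in fat and SEPHS2, which makes the selenium donor for selenoproteins, in liver (-0.44 ± 0.10).

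Further genes known as NRF2 targets or regulators numbered 11 measured of 24 listed, and NFE2L2, which encodes NRF2, and KEAP1, its inhibitor, were not analysed here. In fat 6 of the 11 fell and 1 rose (background 18.9% and 15.3%), with a median of -0.44, and in liver 4 fell and none rose (background 3.1% and 4.09%). Several of these genes, ME1, PGD, TKT and TALDO1, are also enzymes of fatty acid and pentose metabolism; TALDO1 gave -1.21 ± 0.09 in fat, and TKT -1.05 ± 0.11 in fat and -0.77 ± 0.11 in liver. EPHX1, microsomal epoxide hydrolase, fell in both tissues (log2 fold change -1.06 ± 0.11 in fat and -0.55 ± 0.10 in liver), and SQSTM1, an autophagy receptor, rose in fat (0.39 ± 0.08). The ferritin genes FTH1 and FTL were not called in either tissue.

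**Figure D5:**
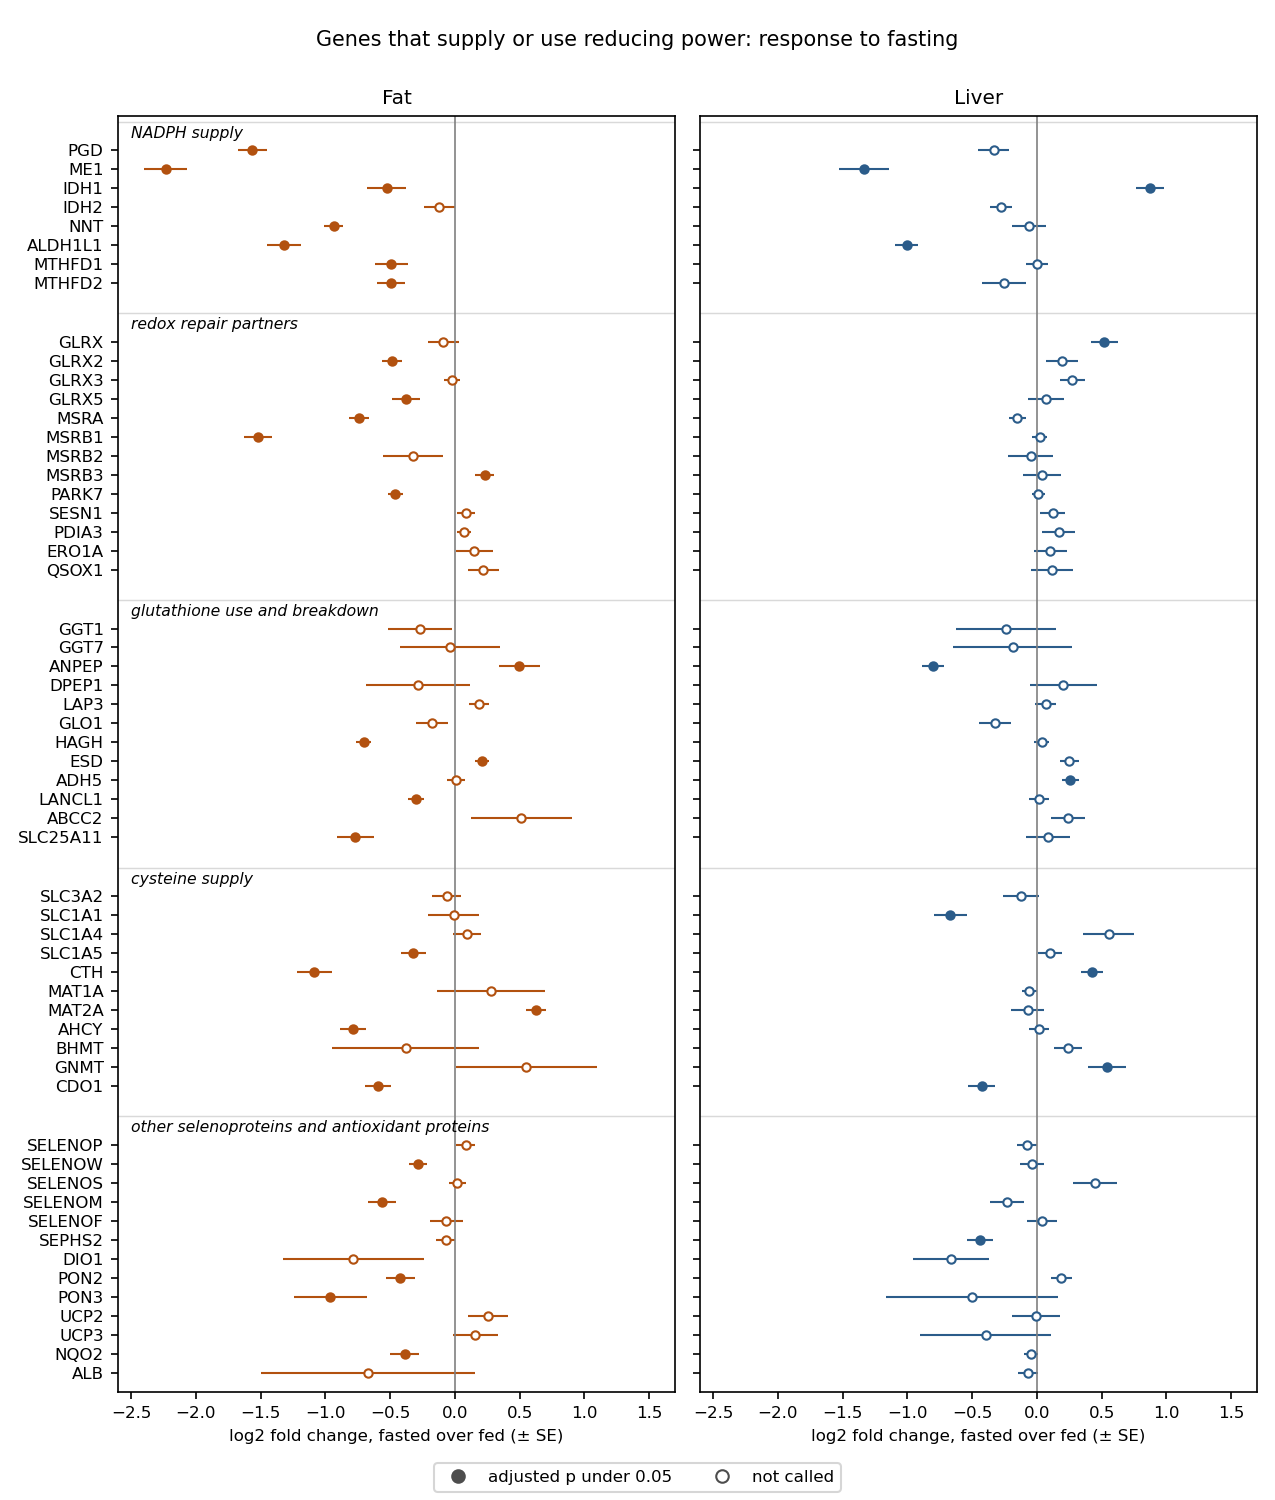
Log2 fold changes, fasted over fed, with their standard errors, of genes outside the 42 that supply or use reducing power, in fat (left) and liver (right), listed down the page by group; filled points passed an adjusted p of 0.05. In fat 7 of the 8 NADPH-supplying genes are filled and below 0, and the filled points above 0 are MSRB3, ANPEP, ESD and MAT2A. In liver ME1, ALDH1L1, ANPEP, SLC1A1, CDO1 and SEPHS2 are filled below 0 and IDH1, GLRX, ADH5, CTH and GNMT above.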

How the data were processed

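The deposited table held 1 linear intensity per probe set and array, which the authors made with affy and MAS5, per the submitters' processing notes, with versions not given; the trimmed mean (2% off each end) was 500 on every array. Of 24123 probe sets, 124 controls were left out and 23999 tested as log2 intensity with nothing added. Gene symbols came from the platform annotation. For each tissue limma 3.58.1 (R 4.3.3) fitted the 4 group means plus a block term for replicate number, because the submitters describe blocks, and eBayes moderated the variances with a trend. Fat and liver of a gilt were joined by genotype, feeding and number, with the gilt as a random block; for 22 of 24 liver arrays the closest fat array of the group, by deviations from group means, carried the same number. Tests were 2-sided, adjusted by Benjamini and Hochberg over all probe sets, and called at an adjusted p under 0.05; errors beside log2 values are standard errors.

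Members and lists were chosen with earlier results of these data known. Full values go to the called genes with the smallest p (8 for fasting in each tissue, 4 for the difference between tissues), the 2 with the smallest p for genotype and interaction, and a fixed set (GSTO1, GCLC, GCLM, GSR, CAT, SOD1, SOD2, HMOX1, NQO1, TXN, TXNRD1, TXNIP, PRDX3, GPX4); from other lists up to 3 called genes in each direction are named by p. Same-numbered arrays of different groups had deviations correlated at -0.355 to 0.496 in fat and -0.227 to 0.213 in liver, so the numbers were not shown to pair gilts. Whether replicates differ in more than the animal is not given, and their number limits precision. Alternatives were no block, a random block, quantile normalization, median-centring, the brighter probe sets alone, 32 added before log2, no trend, array weights, each replicate number left out, other probe sets, and each genotype alone. The models were tested on simulated data. No 2 arrays were copies (highest rank correlation 0.970). Python 3.11.15, pandas 2.3.3 and Matplotlib 3.10.9 served for tables and plots.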

Additional observations from a re-analysis of the deposited data

Results flagged for a closer look

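A gap test within each group of 6 arrays found 13 outlying arrays among 216 groups of 27 named genes; chance gives about 1 in 20. In fat these were GCLC in N298 fasted replicate 4 (signal 204, nearest other array 256.8), GPX1 in D298 fed replicate 5 (6593, nearest 12000), PRDX6 in D298 fed replicate 1 (5351, nearest 9302), TXNL1 in the same array (3108, nearest 3679) and HMOX1 in N298 fed replicate 1 (1426, nearest 539.7). In liver the low arrays were GSTK1 in N298 fasted replicate 4 (6255, nearest 7633), GPX1 in N298 fasted replicate 3 (13180, nearest 15820), PRDX2 in D298 fed replicate 1 (3545, nearest 4434), PRDX6 in N298 fed replicate 5 (13780, nearest 17370) and TXNIP in D298 fasted replicate 1 (6674, nearest 8906). The high ones in liver were PRDX4 in N298 fed replicate 3 (9202, nearest 8001), SOD2 in N298 fed replicate 5 (6690, nearest 3671) and NQO1 in N298 fasted replicate 6 (2737, nearest 1563).

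For 12 of the 42 genes the response to fasting differed between the tissues in the within-gilt test (limma, adjusted p under 0.05). Of the 42, 23.8% were called negative and 4.76% positive, against 15.2% and 9.06% of all 6765 genes. Fat minus liver on the log2 scale was -0.99 for TXN2, -0.89 for PRDX2, -0.78 for TXNDC12, -0.73 for GSTO1, -0.69 for PRDX1, -0.60 for GPX4, -0.51 for PRDX6, -0.41 for PRDX4, -0.34 for TXNL4A and -0.30 for PRDX3. It was 0.91 for SOD2 and 0.62 for TXNL1. The response had opposite estimates in fat and liver for TXNDC12 (-0.25 and 0.53), TXN2 (-0.70 and 0.29), TXNL1 (0.17 and -0.45) and SOD2 (0.66 and -0.25). Signs also differed for PRDX2 (-0.87 and 0.02), PRDX4 (-0.39 and 0.02) and TXNL4A (-0.32 and 0.03), whose liver estimates were smaller than their standard errors. Among the genes whose signs differed only TXNDC12 was called in both tissues, and PRDX1 was called lower in both.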

How the results depend on the processing

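Under the alternatives, some calls kept their sign and their side of the threshold in every setting run over both genotypes. In fat these were the falls of PRDX1, PRDX2, PRDX6, GSTO1, TXN2, NQO1 and TXNL4A and the rises of SOD2 and GPX3. In liver they were the calls of TXNDC12 and TXNL1. Of these genes only TXNL1 had more than 1 probe set, so other probe sets could not be tried for the rest. In fat the 2 higher genes became 4 with a random replicate block, quantile normalization, the brighter probe sets alone or the second probe sets, and 2 to 3 with 1 replicate number left out, and the 18 lower ones 16 to 17. In liver the 1 higher gene became 2 with no replicate block, with a random replicate block or with median-centring, and 1 to 3 with 1 number left out. The 5 lower ones in liver became 2 under median-centring, 3 without trend and 3 with the second probe sets, and 2 to 4 with 1 number left out; all probe sets called in liver numbered 1073, and 667 without replicate 3, where 2 were called for genotype in place of 0; without replicate 1, 4 were called for the interaction in fat in place of 0. Fat minus liver in fasted gilts had 7 higher genes under median-centring. Without the muscle-rich arrays, an alternative chosen after seeing the data like that without the array highest in macrophage markers, the 10 negative differences of response became 6, the probe sets called in fat 3481 in place of 6048, and those for the difference of response 2383 in place of 3930. With no replicate block no other count of the 42 moved by over 1.5 times; same-numbered arrays were not shown to pair. A random replicate block was not run for the fits over 48 arrays. Within D298 gilts fasting in fat gave 15 lower and 2 higher genes of the 42 (background 11.7% and 7.36%). Within N298 gilts it gave 9 lower and 5 higher (background 12.8% and 9.53%). The muscle-rich arrays were unevenly spread over these fits: D298 fasted replicates 4, 5 and 6, N298 fasted replicate 6 and N298 fed replicate 3. Their part in the counts of each genotype was not tested. In liver 1 was lower in D298 gilts (background 1.39%) and 1 higher in N298 gilts (background 1.52%). The 20 genes called in fat and the 6 in liver had the same sign in both genotypes. Those calls were made on the mean of both genotypes, so a shared sign is in large part built in.

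Other probe sets reversed the sign in fat for PRDX4 (0.58), TXNRD1 (0.65), GPX4 (0.28), GPX7 (0.29) and GCLC (0.33), and for the difference of response for PRDX4 (0.92), TXNRD1 (0.82) and GPX4 (0.29); the cause was not tested. Signal over background limits the dim genes, 7 of the 42 in fat and 5 in liver being below the median probe set, and no detection calls were used.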

Other observations

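Cysteine supply, the usual limit on glutathione, was measured with 11 of 14 listed genes. In fat 4 fell and 1 rose, where 18.9% and 15.3% of all genes did, and in liver 2 fell and 2 rose, where 3.1% and 4.09% did. CTH, which releases cysteine from cystathionine, went opposite ways, with medians of 175 against 419 in fasted against fed fat (log2 fold change -1.09 ± 0.14, adjusted p = 4.74e-06) and 15295 against 11575 in fasted against fed liver (log2 fold change 0.43 ± 0.09, adjusted p = 0.00484). AHCY, which clears the methylation product that precedes homocysteine, fell in fat (-0.79 ± 0.10), where MAT2A, which makes the methyl donor, rose (0.62 ± 0.08). CDO1, which oxidises cysteine, fell in both tissues (-0.59 ± 0.10 in fat and -0.43 ± 0.10 in liver). SLC1A1, a transporter of cysteine and glutamate, fell in liver (-0.67 ± 0.13). GNMT, which uses up the methyl donor, rose in liver (0.54 ± 0.14).

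Of 7 measured genes that make superoxide or peroxide, none was called in fat or in liver (limma), with 0 and 1 at an unadjusted p under 0.05. Of 10 genes of heme, iron and metal binding, BLVRA, biliverdin reductase, was the 1 called, against a background of 18.9% lower, and it fell in fat (log2 fold change -0.86 ± 0.08, adjusted p = 2.15e-07).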
